A study of Homo sapiens with 33 samples.

Results

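The genes described here make cholesterol and fatty acids or set how much of them a cell makes. They were chosen as 33 listed human symbols: 7 of the mevalonate pathway, 11 of the steps between squalene and cholesterol, 7 that sense or control sterols, and 8 of fatty acid and lipid synthesis. The array held a probe set naming a single gene for 30 of the 33, out of 19775 genes in all, and the brightest such probe set stood for each gene. FDFT1 had no paired probe set, and those of CYP51A1 and FADS1 were shared with another gene, so these 3 have no value. ELOVL6 lay below the brightness filter in both experiments, which left 29 tested genes.

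THP-1, an established line of human monocytic leukaemia cells, was treated with retinoic acid and a cytokine, and RNA of 33 separate wells was hybridised to 33 arrays (Affymetrix HG-U133 Plus 2). In the first experiment, harvested at 40 h, 5 wells received all-trans retinoic acid (RA, 20 nM) and tumor necrosis factor (TNF, 5 ng per ml), 5 received TNF alone, 5 received RA alone, and 6 received the ethanol vehicle (0.1%). RA was given at the start and again after 16 h, and TNF was present for the last 24 h. In the second, wells were harvested after RA for 2 h (2 wells), 6 h (2 wells), 16 h (3 wells) or 40 h (2 wells), with 8 vehicle wells, 5 harvested at 16 h and 3 at 40 h. The 40 h wells of the second experiment belong to the first as well. All wells were of 1 cell line, so the errors given here are those between wells of that line.

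Cholesterol is built from acetyl units through mevalonate and squalene, and fatty acids are built from the same acetyl units by a separate set of enzymes. When membranes of the endoplasmic reticulum hold little cholesterol, the escort protein SCAP carries the sterol regulatory element-binding proteins to the Golgi, where they are cut and released to switch on both sets of genes. INSIG proteins hold that transport back. When cells hold much cholesterol, oxysterols switch on liver X receptors, which raise cholesterol export and the ligase MYLIP. In monocytes and macrophages these programmes set the makeup of membranes and the formation of lipid-laden cells.

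Deposited values are log2 signals with the array's own median set to 0. Genes were called where the adjusted p (Benjamini-Hochberg) from limma was under 0.05, fitted over all genes that passed the brightness filter (12393 in the first experiment, 12503 in the second). The arrays of the first experiment came in 2 runs of record numbers, called array set 1 and array set 2 here, and the fit held the array set as a covariate. The myeloid markers LYZ, FCER1G and TYROBP averaged 6.21, 7.67 and 6.90 over all arrays, while MPO averaged -0.35 and ranged from -3.34 to 1.01. The T cell markers CD3E and CD3D averaged -1.13 and -1.09, the epithelial markers EPCAM and CDH1 averaged -1.96 and -2.57, and the highest means among markers of other lineages were those of COL1A1 at 1.23 and CD79A at 1.16. In RNA from whole wells, fewer cells of a kind and less RNA per cell cannot be told apart.

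Scaling moved the balance of calls over all genes, which bears on each comparison given here. On the deposited scale 829 genes were called higher and 572 lower with TNF against vehicle, and 1140 and 1406 after quantile normalization, which gives every array the same distribution. The counts for RA plus TNF against vehicle were 1445 higher and 919 lower on the deposited scale, and 1507 and 1883 after quantile normalization. RA plus TNF against TNF gave 570 higher and 333 lower against 810 and 765 on the quantile scale, RA plus TNF against RA gave 946 and 564 against 1171 and 1177, and RA at 40 h gave 343 and 170 against 509 and 547. In the time course the deposited and quantile scales gave 105 higher and 3 lower against 78 and 27 after 2 h, 1026 and 22 against 302 and 169 after 6 h, 295 and 583 against 735 and 824 after 16 h, and 557 and 84 against 684 and 638 after 40 h.

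TNF for 24 h came with higher levels of some genes of cholesterol synthesis, both before and after squalene. Against vehicle, 8 of the 29 genes rose and 1 fell, while 6.69% of all genes tested were called higher and 4.62% lower. The genes that rose were 3 of 7 in the mevalonate pathway and 5 of 9 after squalene. No gene of fatty acid synthesis was called among the 6 tested, at changes from 0.03 to 0.52 on the log2 scale. The median change over the 29 genes was 0.29, against -0.01 over all genes.

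Of the mevalonate pathway, HMGCS1, ACAT2 and FDPS rose. HMGCS1, the cytosolic synthase that makes HMG-CoA, read 5.04, 5.09, 5.17, 5.25 and 5.35 in TNF wells, against 3.53, 3.86 and 4.44 as the lowest, median and highest of the 6 vehicle wells. ACAT2, the cytosolic thiolase that joins acetyl units at the first step, read 5.77, 5.85, 5.88, 5.95 and 5.99 in TNF wells, against 4.62, 4.91 and 5.27 as the lowest, median and highest vehicle values. For both genes every TNF well lay above every vehicle well. HMGCS1 rose by 1.27 ± 0.20 on the log2 scale (SE), 2.41-fold, with a limma adjusted p of 1.18e-05. ACAT2 rose by 0.99 ± 0.16, 1.99-fold, at an adjusted p of 1.55e-05. FDPS, which makes farnesyl diphosphate, the branch point to sterols and to prenylated proteins, rose by 0.59 ± 0.15 (adjusted p = 0.0068). MVK and PMVK, the kinases that phosphorylate mevalonate in turn, and IDI1, the isomerase after them, changed by 0.29 ± 0.19, -0.11 ± 0.18 and 0.29 ± 0.20 and were not called. Their 95% confidence intervals ran from -0.09 to 0.67, from -0.48 to 0.27 and from -0.12 to 0.70. MVD, the decarboxylase that ends the mevalonate steps, changed by 0.61 ± 0.69 (95% interval -0.79 to 2.01) and was not called either.

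After squalene, DHCR7, the reductase of the last step, read 4.15, 4.22, 4.36, 4.40 and 4.98 in TNF wells, against 2.57, 3.03 and 4.30 in the lowest, median and highest vehicle wells. Only the highest vehicle well reached the range of the TNF wells. MSMO1, an oxidase that removes methyl groups from the sterol ring, read 5.98, 6.02, 6.09, 6.37 and 6.50 in TNF wells, against 5.09, 5.21 and 5.90 as the lowest, median and highest vehicle values. LSS, the cyclase that folds squalene epoxide into lanosterol, read 5.25, 5.29, 5.32, 5.37 and 5.44 in TNF wells, against 3.97, 4.50 and 4.81 as the lowest, median and highest vehicle values. The TNF and vehicle wells did not overlap for MSMO1 or LSS. The rises were 1.23 ± 0.21 for DHCR7 (adjusted p = 6.64e-05), 0.87 ± 0.16 for MSMO1 (adjusted p = 0.00015) and 0.87 ± 0.17 for LSS (adjusted p = 0.00047). HSD17B7 and NSDHL, which act in removing the methyl groups at carbon 4 of the ring, rose by 0.58 ± 0.15 (adjusted p = 0.00829) and 0.54 ± 0.18 (adjusted p = 0.0456). SQLE, the monooxygenase that makes squalene epoxide, changed by 0.52 ± 0.19 and missed the threshold (adjusted p = 0.0664). TM7SF2, SC5D and EBP, a reductase, a desaturase and an isomerase of the late steps, had positive changes of 0.28, 0.38 and 0.22 that were not called.

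**Figure D1:**
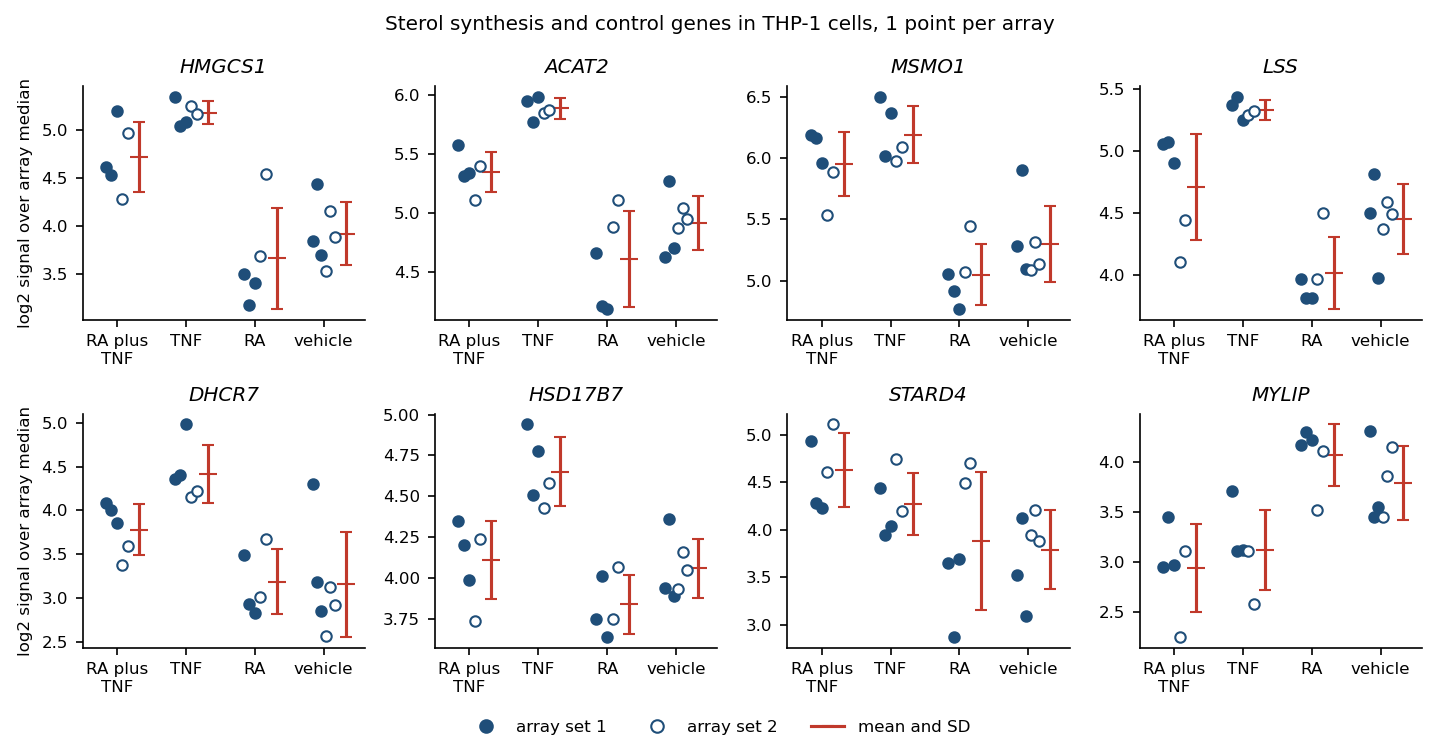
Log2 signal over the array median (vertical axis) of 8 genes in RA plus TNF, TNF, RA and vehicle wells, 1 point per array, filled for array set 1 and open for array set 2, with the mean and SD in red. HMGCS1, ACAT2, MSMO1, LSS and HSD17B7 are higher in every TNF well than in any vehicle well, and every MYLIP value in RA plus TNF wells, 3.45 at most, lies below the lowest RA value of 3.52.

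Among the genes of sterol control, TNF lowered 1. MYLIP, a ubiquitin ligase that marks lipoprotein receptors for breakdown, read 2.58, 3.11, 3.11, 3.12 and 3.71 in TNF wells, against 3.45, 3.70 and 4.31 as the lowest, median and highest vehicle values. A single TNF well reached into the vehicle range. MYLIP fell by 0.70 on the log2 scale with an SE of 0.20 (adjusted p = 0.017). The factors themselves were not called: SREBF2, the factor of the sterol genes, changed by 0.13 ± 0.25 (95% interval -0.38 to 0.63), and SREBF1, the factor of the fatty acid genes, by -0.29 ± 0.22 (-0.73 to 0.15). INSIG1, which retains the factors and is itself one of their targets, changed by 0.13 ± 0.16 (-0.20 to 0.47). STARD4, which carries cholesterol between membranes, changed by 0.54 ± 0.20 and was not called (adjusted p = 0.0844).

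The rise with TNF was called in each array set alone for 5 of the 8 genes. Within array set 1 alone, HMGCS1, ACAT2, DHCR7, MSMO1 and LSS changed by 1.16, 1.04, 1.13, 0.87 and 0.93, and within array set 2 alone by 1.36, 0.91, 1.31, 0.85 and 0.82, each with an adjusted p under the threshold in both sets. All 9 called genes kept their sign in both sets, and 5 rose by call in array set 1 alone. FDPS, HSD17B7 and NSDHL lost their call in each set alone. HSD17B7 and NSDHL also lost it without the array set covariate, and LSS when its probe sets were averaged (limma adjusted p = 0.064). MYLIP changed by -0.46 ± 0.26 in set 1 (adjusted p = 0.431) and by -0.97 ± 0.28 in set 2 (adjusted p = 0.0275), and its call was lost without vehicle well 1, vehicle well 6 or TNF well 5. After quantile normalization, and after scaling arrays to a common trimmed mean, 13 genes rose and 2 fell: SQLE, STARD4, SC5D, ACLY and LPIN1 joined those that rose, and SCAP joined MYLIP. NSDHL kept its call in 8 of the 21 fits that left out 1 array.

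Other probe sets of HMGCS1, DHCR7, LSS and MYLIP gave the same direction in 8 of 8 cases. A second probe set of HMGCS1 changed by 1.12 (adjusted p = 0.00327), a second of DHCR7 by 1.12 (adjusted p = 3.17e-05) and a second of NSDHL by 0.70 (adjusted p = 0.0131). Those of LSS, at 0.49 and 0.78, and of MYLIP, between -0.66 and -0.40, were not called.

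The promoters of the genes that rose were read for letters tied to this programme. Sterol regulatory element-binding proteins bind sterol elements, commonly beside a CCAAT box that binds the factor NF-Y. The first start listed by RefSeq on GRCh38.p14 is shown, as the 250 bases before it, for 4 of the genes that rose with TNF and for MYLIP, which fell; capitals mark CCAAT or its reverse complement ATTGG. HMGCS1 lies at chr5:43313413-43313662 on the minus strand, FDPS at chr1:155308616-155308865 on the plus strand, MSMO1 at chr4:165327419-165327668 on the plus strand, DHCR7 at chr11:71448394-71448643 on the minus strand and MYLIP at chr6:16128836-16129085 on the plus strand.
HMGCS1: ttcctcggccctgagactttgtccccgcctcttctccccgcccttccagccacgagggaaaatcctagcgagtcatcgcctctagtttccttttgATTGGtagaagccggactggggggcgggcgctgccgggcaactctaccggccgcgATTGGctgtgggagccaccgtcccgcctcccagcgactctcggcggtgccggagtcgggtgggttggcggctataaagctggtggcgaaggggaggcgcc
FDPS: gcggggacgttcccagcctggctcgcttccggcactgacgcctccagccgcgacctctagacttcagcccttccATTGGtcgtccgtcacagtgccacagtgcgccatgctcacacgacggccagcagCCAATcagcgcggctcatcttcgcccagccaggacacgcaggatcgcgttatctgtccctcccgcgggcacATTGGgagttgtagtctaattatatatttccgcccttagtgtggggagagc
MSMO1: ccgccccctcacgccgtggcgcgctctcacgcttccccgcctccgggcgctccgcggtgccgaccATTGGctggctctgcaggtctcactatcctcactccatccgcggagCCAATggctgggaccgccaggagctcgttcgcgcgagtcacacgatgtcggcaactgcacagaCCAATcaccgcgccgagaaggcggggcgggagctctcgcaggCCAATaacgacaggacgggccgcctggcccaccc
DHCR7: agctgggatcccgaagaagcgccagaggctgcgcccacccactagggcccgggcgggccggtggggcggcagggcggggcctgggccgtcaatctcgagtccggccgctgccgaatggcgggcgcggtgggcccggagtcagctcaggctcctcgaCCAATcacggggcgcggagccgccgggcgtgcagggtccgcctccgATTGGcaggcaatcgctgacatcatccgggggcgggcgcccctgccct
MYLIP: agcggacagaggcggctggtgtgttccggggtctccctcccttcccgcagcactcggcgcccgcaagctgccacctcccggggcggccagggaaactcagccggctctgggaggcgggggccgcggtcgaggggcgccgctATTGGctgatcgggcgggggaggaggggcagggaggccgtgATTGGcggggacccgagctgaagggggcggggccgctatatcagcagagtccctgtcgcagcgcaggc

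Read on both strands, the printed stretches hold 2 CCAAT boxes for HMGCS1, 3 for FDPS, 4 for MSMO1, 2 for DHCR7 and 2 for MYLIP. Promoters were found in the RefSeq table for 29 of the 33 listed genes, and 20 of them (69.0%) had CCAAT within 250 bases before a listed start, against 37.0% of the 27305 genes in the table. By role, it was present in 5 of 6 mevalonate genes, 8 of 9 genes after squalene, 4 of 7 control genes and 3 of 7 fatty acid genes. It was present in 8 of the 8 genes called with TNF that have a promoter in the table and in 12 of the 18 tested genes that were not called. The 8 include MYLIP, which fell. A gene counted if any listed start had CCAAT, and the second listed starts of HMGCS1 and DHCR7 had none. The E-box CACGTG was present in SC5D, INSIG1 and SCAP, and in 7.73% of all genes. A sterol element with the letters TCACNCCAC was found in 1 listed gene, SREBF2, and in 297 genes of the table (1.09%). It is shown here because it was the only match, in capitals with a nearby ATTGG, within chr22:41832912-41833040 on the plus strand. Matches were read on both strands and could overlap one another, and a match of letters shows no binding.
SREBF2: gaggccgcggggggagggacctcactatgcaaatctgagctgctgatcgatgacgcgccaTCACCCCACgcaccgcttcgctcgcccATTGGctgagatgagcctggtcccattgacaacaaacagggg

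Adding RA to TNF lowered part of this group. Against TNF alone, 3 of the 29 genes fell and none rose in limma, while 2.69% of all genes were called lower and 4.60% higher. Before adjustment 9 were lower and 0 higher at a p under 0.05, against 892 lower and 1370 higher of the 12393 genes tested. The genes that fell were ACAT2, HSD17B7 and LSS, all of which had risen with TNF. Both comparisons use the same TNF wells, so high readings by chance in those wells would favour such an overlap. The median change over the 29 genes was -0.19, against 0.05 over all genes.

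LSS read 4.10, 4.44, 4.90, 5.06 and 5.07 in RA plus TNF wells, all below the lowest TNF value of 5.25. HSD17B7 read 3.74, 3.99, 4.20, 4.24 and 4.35 in RA plus TNF wells, against 4.43, 4.51, 4.58, 4.78 and 4.94 in TNF wells. ACAT2 read 5.11, 5.31, 5.34, 5.40 and 5.58 in RA plus TNF wells, again below every TNF well, of which the lowest read 5.77. For each gene the groups did not overlap. LSS changed by -0.62 ± 0.18 (adjusted p = 0.0271), HSD17B7 by -0.54 ± 0.16 (adjusted p = 0.029) and ACAT2 by -0.54 ± 0.16 (adjusted p = 0.0339). DHCR7 was lower in every RA plus TNF well, 3.38 to 4.08, than in any TNF well, 4.15 to 4.98, and changed by -0.64 ± 0.22 without passing the threshold (adjusted p = 0.0768). FDPS, EBP and FASN, the fatty acid synthase, changed by -0.47, -0.48 and -0.45 at adjusted p-values of 0.0604, 0.0802 and 0.0803.

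How many genes were called in this comparison depended on the scaling. Quantile normalization called 12 lower and 0 higher, and a common trimmed mean called 10 lower and 0 higher, in data where 765 and 752 of all genes were called lower against 333 on the deposited scale. Both scalings added DHCR7, FDPS, EBP, FASN, ACLY and HMGCS1 to the genes that fell, at -0.70, -0.58, -0.56, -0.51, -0.37 and -0.54 under quantile normalization. All 29 genes kept the sign of their change under both. Within array set 1 alone none was called, and LSS changed by -0.34 ± 0.22 there against -1.03 ± 0.23 in array set 2 (adjusted p = 0.494 and 0.00465). LSS lost its call without any 1 of 4 TNF wells (1, 2, 4 and 5) or RA plus TNF wells 4 or 5. HSD17B7 lost its call without TNF wells 1, 3 or 5 or RA plus TNF wells 3 or 4, and ACAT2 without TNF wells 1, 2, 3 or 5 or RA plus TNF wells 2, 3, 4 or 5.

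**Figure D2:**
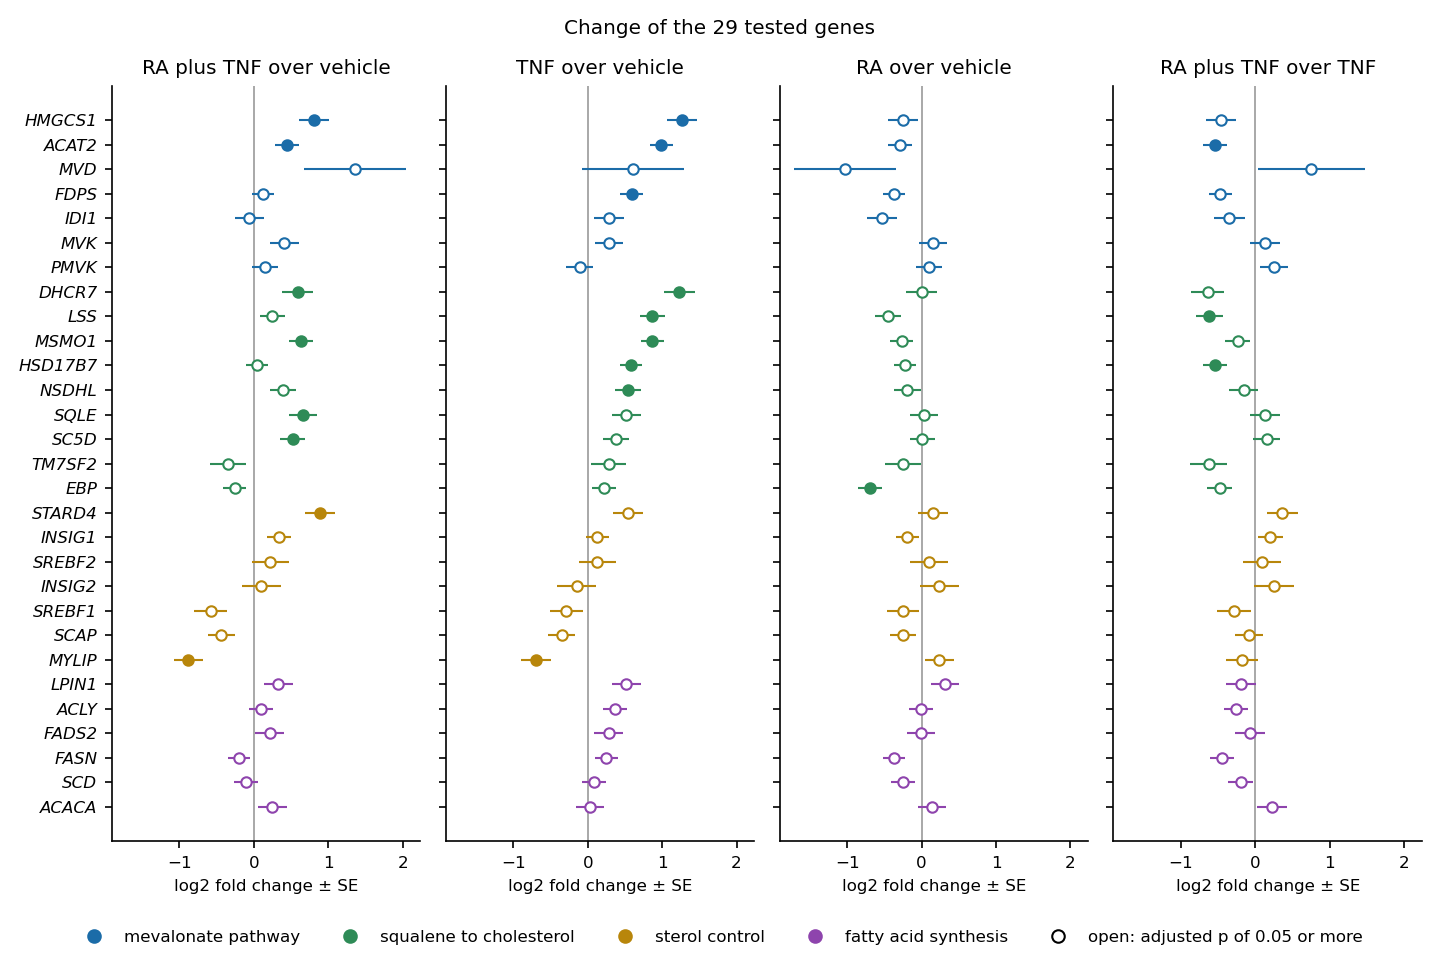
Log2 fold change with its SE (horizontal axis) of the 29 tested genes, grouped by role, for RA plus TNF over vehicle, TNF over vehicle, RA over vehicle and RA plus TNF over TNF; filled points have an adjusted p under 0.05. TNF raised 8 genes of sterol synthesis and no gene of fatty acid synthesis was called in any of these panels.

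RA alone for 40 h left the group largely without calls. Against vehicle, 1 of the 29 genes fell and none rose in limma, while 1.37% of all genes were called lower and 2.77% higher. With no adjustment, 5 were lower and 0 higher at a p under 0.05, against 765 lower and 905 higher of the 12393 genes tested. EBP, the isomerase that shifts a double bond of the sterol ring, read 3.92, 3.95, 4.10, 4.29 and 4.30 in RA wells, against 4.43, 4.81 and 5.14 as the lowest, median and highest vehicle values. No RA well reached the vehicle range. EBP fell by 0.69 on the log2 scale with an SE of 0.16 (adjusted p = 0.00656), by 0.71 in array set 1 and by 0.64 in array set 2, where neither set alone passed (adjusted p = 0.101 and 0.107). Its call was also lost when the gene's probe sets were averaged.

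The largest change in size was that of MVD, at -1.03 ± 0.69 (95% interval -2.43 to 0.37, adjusted p = 0.602), whose RA wells overlapped the vehicle wells at -0.66, -0.21 and 0.88 (lowest, median and highest). By p, the next after EBP were IDI1 at -0.53 ± 0.20, LSS at -0.45 ± 0.17, FASN at -0.37 ± 0.15 and FDPS at -0.37 ± 0.15, at adjusted p-values between 0.168 and 0.218. HMGCS1, ACAT2 and MSMO1 changed by -0.25, -0.29 and -0.27, with 95% intervals from -0.65 to 0.15, from -0.60 to 0.03 and from -0.59 to 0.06. Quantile normalization called 6 genes lower and a common trimmed mean 5. FDPS, IDI1, LSS and FASN joined EBP in both. The median change of the 29 genes was -0.36 in array set 1 and 0.11 in array set 2, and 13 of the 29 had the same sign in both. The median over all genes was -0.10 in set 1 and 0.15 in set 2.

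Against vehicle, RA plus TNF wells had 7 of the 29 genes higher and 1 lower, while 11.7% of all genes were called higher and 7.42% lower. The genes that rose came from the mevalonate pathway (HMGCS1 and ACAT2), the steps after squalene (MSMO1, SQLE, SC5D and DHCR7) and sterol control (STARD4). STARD4 read 4.23, 4.28, 4.61, 4.93 and 5.11 in RA plus TNF wells, against 3.09, 3.91 and 4.21 as the lowest, median and highest vehicle values. Every RA plus TNF well was above every vehicle well. STARD4 rose by 0.89 ± 0.20 (adjusted p = 0.00113), by 0.90 within array set 1 and 0.85 within array set 2.

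HMGCS1 read 4.28, 4.53, 4.62, 4.97 and 5.20 and MSMO1 5.54, 5.89, 5.96, 6.16 and 6.19 in RA plus TNF wells. Both groups overlapped the vehicle wells, whose highest values were 4.44 and 5.90. HMGCS1 rose by 0.81 ± 0.20 (adjusted p = 0.00239) and MSMO1 by 0.63 ± 0.16 (adjusted p = 0.00371). SQLE read 5.89, 5.98, 6.15, 6.33 and 6.51 in RA plus TNF wells, against 5.17, 5.49 and 6.18 as the lowest, median and highest vehicle values, and rose by 0.66 ± 0.19 (adjusted p = 0.0107). SC5D, the desaturase that puts in the ring's double bond at carbon 5, read 5.05, 5.15, 5.32, 5.41 and 5.56 in RA plus TNF wells, against 4.26, 4.81 and 5.08 as the lowest, median and highest vehicle values. It rose by 0.52 ± 0.17 (adjusted p = 0.0242). For SQLE and SC5D the top of the vehicle range lay within that of the RA plus TNF wells. LSS, HSD17B7 and FDPS, all called with TNF alone, changed by 0.25 ± 0.17, 0.04 ± 0.15 and 0.12 ± 0.15 in this comparison, with 95% intervals from -0.10 to 0.61, from -0.27 to 0.35 and from -0.19 to 0.42.

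MYLIP read 2.25, 2.95, 2.97, 3.11 and 3.45 in RA plus TNF wells, and its highest value equalled the lowest of the vehicle wells, 3.45. It fell by 0.88 on the log2 scale with an SE of 0.20 (adjusted p = 0.00122). SREBF1 and SCAP changed by -0.58 ± 0.22 (adjusted p = 0.0549) and -0.44 ± 0.18 (adjusted p = 0.0813). The split of calls turned on the scaling: 7 genes higher and 1 lower on the deposited scale became 6 higher and 6 lower under quantile normalization and 7 higher and 5 lower under a common trimmed mean. SCAP, SREBF1, EBP and FASN were called lower in both, at -0.55, -0.66, -0.40 and -0.31 under quantile normalization. The calls of SC5D, ACAT2 and DHCR7 were lost in each array set alone, with adjusted p-values for SC5D of 0.11 and 0.213. Of the 21 fits that left out 1 array, SC5D kept its call in 16, ACAT2 in 12 and DHCR7 in 6.

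With RA present in both groups, TNF again went with higher sterol synthesis genes. In RA plus TNF wells against RA wells, 10 of the 29 genes rose and 1 fell, while 7.63% of all genes were called higher and 4.55% lower. The genes that rose were 4 of 7 in the mevalonate pathway, 4 of 9 after squalene, and STARD4 and INSIG1 in sterol control. No fatty acid gene was called, at changes from 0.02 to 0.22 and with 0 of 6 at an unadjusted p under 0.05. At that p, 1716 of the 12393 genes tested were higher and 1223 lower.

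In RA wells MSMO1 read 4.77, 4.92, 5.06, 5.07 and 5.45, below every RA plus TNF well, and the change was 0.89 ± 0.17 (adjusted p = 0.000149). HMGCS1 read 3.17, 3.40, 3.50, 3.69 and 4.54 in RA wells, of which only the highest reached the RA plus TNF range, and the change was 1.06 ± 0.20 (adjusted p = 0.00025). ACAT2 read 4.18, 4.21, 4.66, 4.88 and 5.11 in RA wells, of which the highest equalled the lowest RA plus TNF well, and it rose by 0.74 ± 0.16 (adjusted p = 0.00137). LSS read 3.81, 3.81, 3.96, 3.96 and 4.50 in RA wells and overlapped the RA plus TNF wells at its highest value, and the rise was 0.70 ± 0.18 (adjusted p = 0.00632). STARD4 read 2.87, 3.65, 3.69, 4.49 and 4.70 in RA wells, with its 2 highest wells inside the RA plus TNF range, and rose by 0.75 ± 0.21 (adjusted p = 0.0138). MYLIP read 3.52, 4.11, 4.17, 4.22 and 4.30 in RA wells, above every RA plus TNF well, and fell by 1.12 on the log2 scale with an SE of 0.21 (adjusted p = 0.000154).

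MVD was dim on these arrays and unsteady. It read 1.05, 1.20, 1.23, 1.38 and 1.67 in RA plus TNF wells, against -3.45, -2.60, 0.13, 0.18 and 0.33 in RA wells. The groups did not overlap, and the change of 2.39 ± 0.72 (adjusted p = 0.0219) includes the 2 lowest RA wells; without RA well 2 it was 1.82 at an adjusted p of 0.0926 and without RA well 4 it was 1.88 at 0.0894. The call was also lost without RA plus TNF wells 2 or 3.

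The calls in this comparison differed between the array sets, for all genes as well as for these. Within array set 1 alone 13 genes rose and 1 fell; within array set 2, with 2 wells a group, none rose and 1, MYLIP, fell. Over all genes, 973 were called higher and 270 lower in array set 1, at a median change of 0.17, and 295 higher and 485 lower in array set 2, at a median of -0.15. The median over the 29 genes was 0.47 in set 1 and -0.03 in set 2. HMGCS1 changed by 1.43 ± 0.24 in set 1 and by 0.51 ± 0.27 in set 2, LSS by 1.15 ± 0.22 and 0.04 ± 0.23, SQLE by 0.98 ± 0.25 and 0.10 ± 0.21, and FDPS by 0.86 ± 0.19 and -0.07 ± 0.20. MYLIP changed by -1.11 ± 0.26 and -1.14 ± 0.30. The 3' to 5' signal ratio of ACTB, a measure of RNA integrity, also differed between the sets, at 1.31 ± 0.33 on the log2 scale in set 1 and 0.51 ± 0.28 in set 2 (SD). Within set 1 it was 0.91, 1.03 and 1.03 in RA plus TNF wells, against 1.03, 1.36 and 1.89 in RA wells. Within set 2 it was 0.41 and 0.58 in RA plus TNF wells, against 0.47 and 0.58 in RA wells. The ratio was thus higher in 2 of the 3 RA wells of set 1 than in any RA plus TNF well, and alike in set 2, and its part in the result was not tested. Leaving out RA well 2 or RA plus TNF wells 1, 2 or 3, all of array set 1, left 4, 5, 6 and 5 genes called higher.

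**Figure D3:**
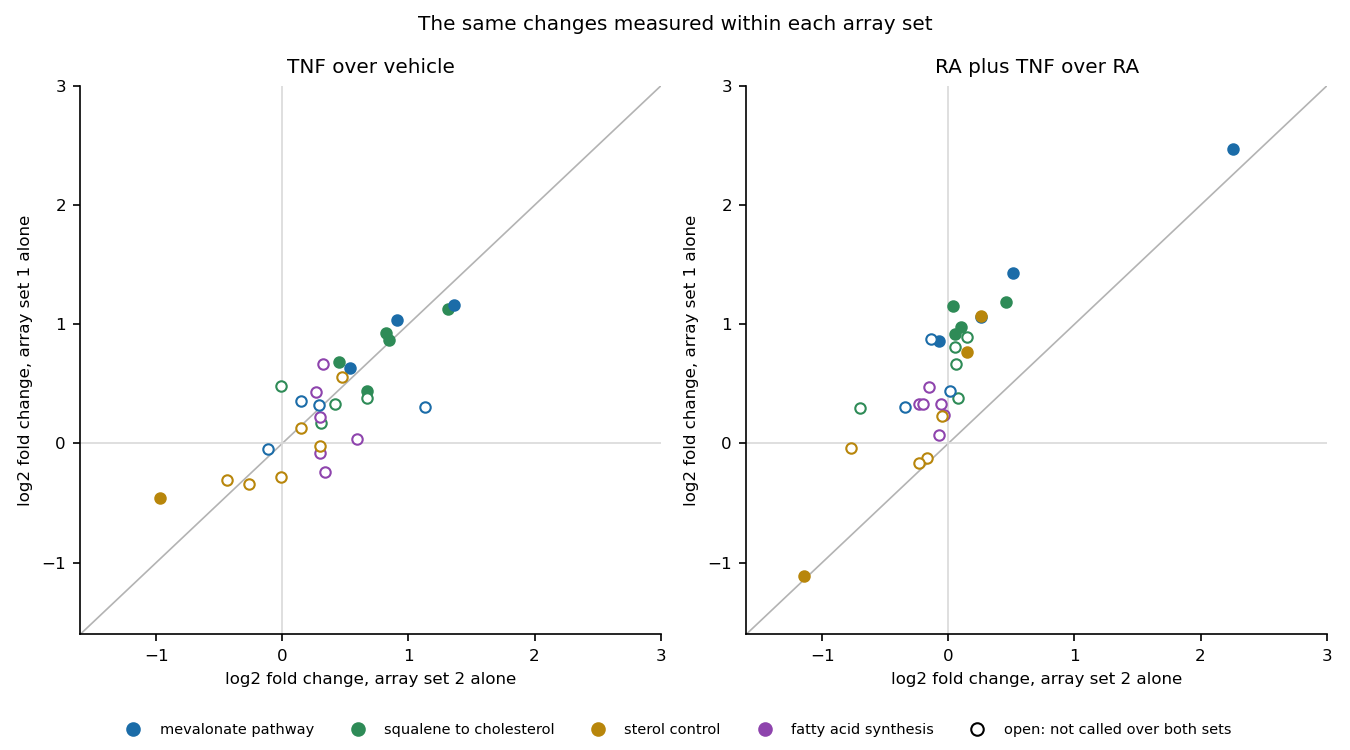
Log2 fold changes of the 29 genes within array set 1 alone (vertical axis) against array set 2 alone (horizontal axis), for TNF over vehicle and for RA plus TNF over RA; filled points were called over both sets and the grey diagonal marks equal change. The 8 genes that rose with TNF over vehicle lie on both sides of the diagonal, with HMGCS1 at 1.16 and 1.36, and MYLIP, which fell, lies above it at -0.46 and -0.97, whereas most genes called with RA plus TNF over RA lie above it, with LSS at 1.15 and 0.04.

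The interaction, which asks whether RA changed a gene by a different amount when TNF was there, was called for none of the 29 genes in limma, while 0.266% of all genes were called higher and 0.161% lower. At an unadjusted p under 0.05 it was lower for 1 gene, DHCR7, at -0.64 ± 0.31 (95% interval -1.26 to -0.01, adjusted p = 0.661). Over all 12393 genes tested it was higher for 513 and lower for 397 at that p. For LSS, ACAT2 and HSD17B7 the interaction was -0.17 ± 0.25, -0.26 ± 0.23 and -0.32 ± 0.22. No gene here was thus shown to respond to RA differently with and without TNF. The array sets differed: the median interaction of the 29 genes was 0.26 in array set 1 alone and -0.39 in array set 2 alone. Of the 29, 9 had the same sign in both sets. Over all genes the medians were 0.22 and -0.20. The comparisons of RA plus TNF with TNF and of TNF with vehicle share the TNF wells.

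In the RA time course, genes of the group were called on the deposited scale only at 6 h, at a share near that of all genes. Changes here stand on a shifted scale, because all genes together had a median change of 0.31 after 2 h, 0.38 after 6 h, -0.17 after 16 h and 0.15 after 40 h. The arrays at 2 h and 6 h also had the lowest median signals before centring, at 23.2 ± 1.63 and 22.2 ± 4.74 units, against 29.4 ± 4.28 units in the 16 h vehicle wells (SD). The part of these values in the results was not tested. Values relative to the median of all genes are therefore given beside the changes. No vehicle well was harvested at 2 h or 6 h, so RA and harvest time cannot be told apart at those times.

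At 6 h, 3 of the 29 genes rose and none fell in limma, shares near the 8.21% of all genes called higher and the 0.176% called lower. Unadjusted, 7 were higher and 0 lower at a p under 0.05, against 3680 higher and 99 lower of the 12503 genes tested. STARD4 read 4.40 and 5.32 at 6 h, against 3.63, 3.94 and 4.21 as the lowest, median and highest of the 8 vehicle wells. SQLE read 6.04 and 6.59 at 6 h, against 4.92, 5.54 and 5.77 as the lowest, median and highest vehicle values. SC5D read 5.16 and 5.74 at 6 h, against 4.55, 4.77 and 5.08 as the lowest, median and highest vehicle values. Both 6 h wells lay above all vehicle wells for each of these genes, and the second well lay well above the first. STARD4 rose by 0.91 ± 0.21 (adjusted p = 0.0064), SQLE by 0.84 ± 0.21 (adjusted p = 0.0116) and SC5D by 0.66 ± 0.19 (adjusted p = 0.0324). Relative to the median of all genes they stood at 0.53, 0.46 and 0.28, and 8 of the 29 genes lay above that median and 19 below it.

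These calls rested on 1 well and on the scaling. Without the second 6 h well no gene was called, and STARD4, SQLE and SC5D changed by 0.45, 0.57 and 0.37; without the first, 5 were called. SC5D kept its call in 13 of the 17 fits that left out 1 array. It lost its call against the 16 h vehicle wells alone, where 3 genes were called higher. Under quantile normalization and under a common trimmed mean, SQLE was the only gene called higher, at 0.39 ± 0.10 (adjusted p = 0.0275) and 0.43 ± 0.11 (adjusted p = 0.032), and FASN was called lower, at -0.58 ± 0.16 (adjusted p = 0.0446) and -0.55 ± 0.15 (adjusted p = 0.0492). On the deposited scale FASN changed by -0.13 ± 0.19. The direction of FASN was thus the same on each scale, whereas 11 of the 29 genes kept one sign under all 3.

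**Figure D4:**
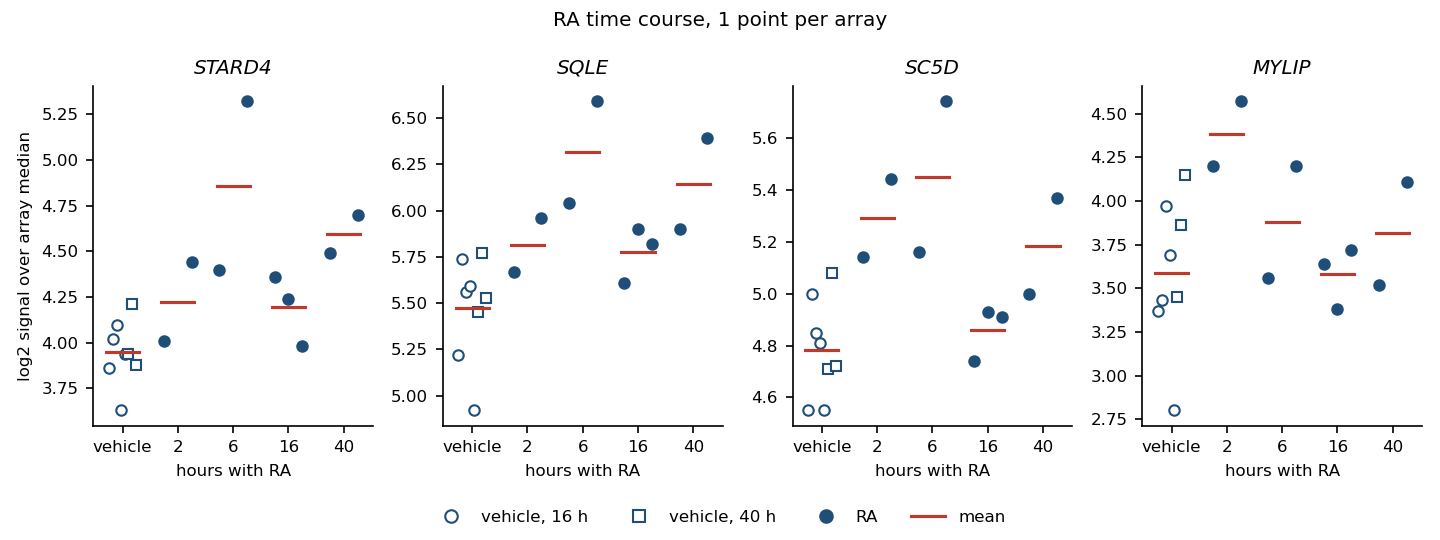
Log2 signal over the array median (vertical axis) of STARD4, SQLE, SC5D and MYLIP in vehicle wells and after 2, 6, 16 and 40 h of RA, 1 point per array with the mean in red; vehicle wells are open circles (16 h) or open squares (40 h). STARD4, SQLE and SC5D lie above all vehicle wells at 6 h, and MYLIP does so at 2 h, at 4.20 and 4.57 against a highest vehicle value of 4.15.

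At 2 h no gene was called in limma, while 0.840% of all genes were called higher and 0.0240% lower. At an unadjusted p under 0.05, 3 were higher and 0 lower, against 2233 and 88 of the 12503 genes tested. MYLIP read 4.20 and 4.57 at 2 h, against 2.80, 3.57 and 4.15 as the lowest, median and highest vehicle values, above every vehicle well. Its change of 0.80 ± 0.26 did not pass (adjusted p = 0.169, 95% interval 0.27 to 1.32), and it stood at 0.49 relative to the median of all genes. Of the 29 genes, 24 lay below that median at 2 h.

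At 16 h no gene was called in limma, while 2.36% of all genes were called higher and 4.66% lower. At an unadjusted p under 0.05, 1 gene, PMVK, was lower, at -0.40 ± 0.18 (adjusted p = 0.189). Of the 12503 genes tested, 590 were higher and 2129 lower at that p. SQLE changed by 0.31 ± 0.18 and was called higher under quantile normalization at 0.43 (adjusted p = 0.00131). Relative to the median of all genes, 24 of the 29 genes stood above and 5 below.

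At 40 h in the time course no gene was called in limma, while 4.45% of all genes were called higher and 0.672% lower. At an unadjusted p under 0.05, 7 were higher and 0 lower, against 1394 and 418 of the 12503 genes tested. SQLE read 5.90 and 6.39 and STARD4 4.49 and 4.70 at 40 h, all above the 8 vehicle wells, and they changed by 0.67 ± 0.21 (adjusted p = 0.0602) and 0.65 ± 0.21 (adjusted p = 0.0738). ACACA, the carboxylase that commits acetyl units to fatty acids, changed by 0.76 ± 0.24 (adjusted p = 0.0587). SQLE and ACACA passed under both other scalings, at 0.49 and 0.60 under quantile normalization. Over all 5 RA wells of the first experiment these genes changed by 0.03 (SQLE), 0.15 (STARD4) and 0.14 (ACACA), and for each of the 3 genes the 2 wells of array set 2 were the highest of the 5.

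The genes of fatty acid synthesis were called in no comparison on the deposited scale, 6 tested in each. Besides ACACA and FASN they were ACLY, which cuts citrate into acetyl units, the desaturases SCD and FADS2, and LPIN1, a phosphatase of triglyceride synthesis. With TNF their changes ran from 0.03 (ACACA) to 0.52 (LPIN1), with 2 higher and 0 lower at an unadjusted p under 0.05 in limma. Over all comparisons that number ran from 0 to 3 higher and from 0 to 1 lower. Among the 12393 genes tested with TNF, 1513 were higher and 1340 lower at the same p. Calls at the adjusted threshold ranged over the comparisons from 0.266% to 11.7% of all genes higher and from 0.0240% to 7.42% lower. SCD, also a target of liver X receptors, changed by 0.08 ± 0.16 with TNF (95% interval -0.24 to 0.41) and by -0.25 ± 0.16 with RA (-0.57 to 0.07). Quantile normalization and a common trimmed mean did call some of these genes. Both called ACLY and LPIN1 higher with TNF, and ACACA higher at 40 h in the time course. Both called FASN lower with RA at 6 h, with RA at 40 h, and in RA plus TNF wells against vehicle. FASN and ACLY were lower by both in RA plus TNF wells against TNF.

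Neighbouring genes of lipid metabolism, listed beside the group and chosen with earlier results known, were read in the same fits. Of 21 further genes of lipid synthesis tested, 4 rose with TNF and none fell, beside 6.69% and 4.62% of all genes: ACSL1, which activates fatty acids, by 1.95 ± 0.23 (adjusted p = 5.2e-08), ME1, which makes NADPH, by 1.59 ± 0.20 (adjusted p = 2.55e-07), TMEM97 by 0.79 ± 0.16 (adjusted p = 0.000579), and DHDDS, of dolichol synthesis, by 0.67 ± 0.21 (adjusted p = 0.0302). ACSL1 also rose with RA at 40 h, by 1.32 ± 0.23 (adjusted p = 0.00013), while ME1 fell by 0.85 with an SE of 0.20 (adjusted p = 0.00699). Of the same 21, 1 rose and 1 fell in RA plus TNF wells against TNF wells, shares near the 4.60% and 2.69% of all genes: SCD5, a desaturase, changed by 0.74 ± 0.22 and ACSS2, which makes acetyl-CoA from acetate, by -0.63 ± 0.19.

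A further list held liver X receptors, their partners and known targets, and NR1H3 was the only receptor of the name with a probe set. Of its 11 genes tested, none was called with TNF in limma, beside 6.69% of all genes called higher and 4.62% lower. Their changes ran from -0.95 to 0.42. At an unadjusted p under 0.05, 0 of the 11 were higher and 3 lower, against 1513 and 1340 of the 12393 genes tested. In RA plus TNF wells against TNF wells 5 of 11 rose and none fell, beside 4.60% and 2.69% of all genes. CD36, a scavenger receptor for oxidised lipoprotein, rose by 2.62 ± 0.22 (adjusted p = 4.08e-11), APOC1, an apolipoprotein, by 2.20 ± 0.19 (adjusted p = 9.1e-11), SMPDL3A, a phosphodiesterase, by 2.12 ± 0.24 (adjusted p = 3.39e-08), and NR1H3, which encodes liver X receptor alpha, by 1.32 ± 0.23 (adjusted p = 7.77e-05). With RA alone at 40 h, where 2.77% of all genes were called higher, 2 of 11 rose, CD36 by 1.52 and APOC1 by 1.27. SMPDL3A was the 1 gene of this list whose interaction was called, at 1.38 ± 0.33, just under the threshold (adjusted p = 0.0499). Over all genes, 0.266% were called higher and 0.161% lower. The number of all genes called higher was 33 in the main fit, 8 without the trend and 4 without the array set covariate. Genes of the further lists were not followed under those settings. The interaction was positive for 9 of the 11, at a median of 0.84 against 0.04 over all genes. At an unadjusted p under 0.05 in limma, 7 of the 11 were higher and 0 lower, against 513 and 397 of the 12393 genes tested. MYLIP, also a liver X receptor target, was not called with RA at 40 h (0.24 ± 0.20) and fell with TNF.

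Of 10 genes of sterol traffic and storage tested, 4 rose with RA at 40 h and none fell, beside 2.77% and 1.37% of all genes. CYP27A1, which makes 27-hydroxycholesterol, rose by 2.36 ± 0.30 (adjusted p = 5.75e-07), NPC2, which hands cholesterol out of the lysosome, by 0.63 ± 0.16 (adjusted p = 0.0106), SOAT1, which esterifies cholesterol for storage, by 0.80 ± 0.20 (adjusted p = 0.0114), and LIPA, the lysosomal lipase, by 0.57 ± 0.16 (adjusted p = 0.0287). The same 4 rose in RA plus TNF wells against TNF wells, CYP27A1 by 2.97 ± 0.31 and NPC2 by 1.37 ± 0.16. In that comparison 4.60% of all genes were called higher and 2.69% lower. With TNF alone 1 of 10 rose, beside 6.69% of all genes: NPC1, the membrane partner of NPC2, by 0.52 ± 0.17 (adjusted p = 0.043). In the time course CYP27A1 changed by 2.95 at 16 h and 3.65 at 40 h, called at both.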

How the data were processed

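RNA of 33 THP-1 wells was hybridised to Affymetrix HG-U133 Plus 2 arrays. The deposited values are log2 signals relative to each array's median, from GCOS per the submitters' processing notes; its version and settings are not given in the sources used here. Powers of 2 of the distance from each array's lowest value were multiples of 0.1 units within 0.006, which gave back the signals, with array medians of 18.9 to 45.2 units. The number of arrays limits the precision.

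Of 54675 probe sets, 41091 name 1 gene symbol, and the brightest of these stood for each gene. Genes under the median brightness of all probe sets were removed. limma 3.58.1 (R 4.3.3) was fitted to 21 arrays, with a term for the array set (16 residual degrees of freedom), and to 17 arrays of the time course (12), using eBayes with trend, Benjamini-Hochberg adjustment over all genes tested, and calls at 0.05. All adjusted p-values for genes come from limma. Array sets are runs of record numbers in the labels. The method was tested on simulated data. Motifs were read from RefSeq promoters (GRCh38.p14).

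The 33 genes and the lists were chosen with earlier results of these data known. Every tested member was followed; single wells were printed for up to 5 called members each way per comparison, and up to 4 called genes per further list were named. MVD was added after its values were seen. Alternatives were quantile normalization, a common trimmed mean, other filters, averaged probe sets, no trend, no covariate, each array set alone, a replicate block, vehicle of 1 harvest time, and leaving out each array.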

Additional observations from a re-analysis of the deposited data

Results flagged for a closer look

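Across 150 sets of values (30 genes in 5 groups of 5 or 6 wells), 8 wells stood apart from the others of their group, and chance alone sets about 1 in 20 such sets apart. SREBF2 read 2.17 in vehicle well 3 at 40 h, where the other vehicle wells read 3.82 to 3.97. DHCR7 read 4.30 in vehicle well 1 (others 2.57 to 3.18), MSMO1 5.90 in vehicle well 2 (5.09 to 5.32) and NSDHL 3.25 in vehicle well 6 (2.92 to 3.04). MVD read -3.00 in TNF well 3 (0.92 to 1.80) and IDI1 5.65 in TNF well 2 (6.22 to 6.45). LSS read 4.50 in RA well 5 (3.81 to 3.96) and MYLIP 3.52 in RA well 4 (4.11 to 4.30). The 8 values came from 8 different wells.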

How the results depend on the processing

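With each of 21 arrays left out, the genes called higher and lower numbered 7 to 11 and 0 to 1 (TNF against vehicle), 0 and 0 to 5 (RA plus TNF against TNF), 3 to 7 and 1 to 2 (RA plus TNF against vehicle), 4 to 14 and 1 (RA plus TNF against RA), and 0 and 1 to 3 (RA against vehicle); with each of 17 left out, 0 to 5 and 0 at 6 h and 0 to 3 and 0 at 40 h. Fewest came without TNF wells 1 or 5 or RA plus TNF well 4 (0, RA plus TNF against TNF), RA plus TNF well 1 (3, against vehicle), RA well 2 (4, RA plus TNF against RA), vehicle wells 1 or 6 or TNF well 5 (0 lower, TNF), and 6 h well 2 (0). HMGCS1, ACAT2, DHCR7, MSMO1, LSS, FDPS and HSD17B7 kept their call with TNF in 21 of 21 removals, and NSDHL in 8. After group and array set means were taken off, same-numbered wells correlated between -0.098 and 0.079 (0 of 30 over 0.1). With group means alone 13 of 30 passed 0.1, at a median of 0.075 against 0.08 for wells of different numbers. In the time course 4 of 19 passed 0.1, at a median of 0.04 against -0.029. With so few wells per group, this could not exclude that the replicate numbers paired the wells. With the replicate block, 4 genes were higher and 2 lower in RA plus TNF against vehicle, and 1 was higher at 6 h. Counts under quantile normalization and a common trimmed mean were 13 and 13 higher and 2 and 2 lower (TNF), 12 and 10 lower (RA plus TNF against TNF), 6 and 5 lower (RA plus TNF against vehicle), 6 and 5 lower (RA), 1 and 1 higher and 1 and 1 lower (6 h), 1 and 1 higher (16 h) and 2 and 2 higher (40 h). The 75th percentile filter gave 2 lower (RA plus TNF against vehicle), 5 lower (RA plus TNF against TNF) and 2 higher (40 h), with fewer genes tested. Without the trend, 4, 1 and 5 remained for RA plus TNF against vehicle (higher), RA plus TNF against TNF (lower) and RA plus TNF against RA (higher). Without the array set covariate these were 3, 0 and 4, and 0 were lower with TNF and with RA, each against vehicle. Array set 1 alone gave 3 higher and 0 lower (RA plus TNF against vehicle), 0 lower (RA plus TNF against TNF), 5 higher and 0 lower (TNF) and 0 lower (RA). Array set 2 alone gave 3 higher (RA plus TNF against vehicle), 0 higher (RA plus TNF against RA), where FDPS turned to -0.07, and 0 lower (RA). Averaged probe sets gave 0 lower with TNF and with RA and 1 higher at 6 h. Without a brightness filter ELOVL6 was called lower at 16 h (1 gene). Of the single-gene calls, 623 of those under array removal were kept and 100 lost, and under other settings 250 were kept, 92 lost and 1 turned. The causes were not tested.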
